A study of Mus musculus with 9 samples.

Results

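The genes described here are 10 genes of the ATF4 and endoplasmic reticulum (ER) stress response: Atf4, Ddit3, Trib3, Asns, Chac1, Xbp1, Hspa5, Hsp90b1, Dnajb9 and Herpud1. They were chosen by name, with earlier results of these data known, as 10 of the 54838 genes of the expression table. The table holds 11 rows with these names, because a second, short entry named Ddit3 lies within the exons of the first and was listed at 0 in every library. All 10 genes passed the filter on low values and were tested.

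Cells sense unfolded proteins in the ER through the kinases PERK and IRE1 and the membrane-bound factor ATF6, together called the unfolded protein response. PERK phosphorylates the translation factor eIF2alpha, as do 3 other kinases that respond to amino acid shortage, haem shortage and double-stranded RNA, and this raises translation of the transcription factor ATF4. ATF4 drives genes of amino acid supply and of the stress response, among them Asns, Chac1, Trib3 and Ddit3. XBP1, spliced by IRE1, and ATF6 drive chaperones and degradation factors of the ER, among them Hspa5, Hsp90b1, Dnajb9 and Herpud1. In the ovary, gonadotropin-stimulated follicles secrete large amounts of protein and make steroids, which load the ER.

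Total RNA came from adult mouse ovaries taken 40 h after PMSG, which starts follicle growth as a gonadotropin, and was sequenced in 3 libraries for each of 3 genotypes. The genotypes were WT, DKO LXR (DKO below), in which both liver X receptors are knocked out, and DKO LXR TG-AMH-LXRb (DKO_TG below), the same double knockout labelled with a transgene named for AMH and LXRb. The liver X receptors are oxysterol-activated nuclear receptors of cholesterol and lipid metabolism, and every group received PMSG. The labels do not say which cells express the transgene, nor whether libraries came from separate animals or from pools, so the p-values reflect only the spread among these libraries, which may be technical. In whole-ovary RNA, fewer cells of a type and less RNA per cell cannot be told apart.

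The libraries held 40.1 to 59.4 M reads in genes, recovered from the deposited RPKM values (reads per kilobase of exon, divided by a library size that the authors' table implies). Nr1h3, which encodes LXRa, lay at 4.12 to 5.47 RPKM in WT, 0.590 to 1.11 in DKO and 0.538 to 0.824 in DKO_TG. Nr1h2, which encodes LXRb, lay at 15.2 to 22.5, 5.79 to 7.79 and 5.14 to 5.96 RPKM, so its level did not show the transgene of the DKO_TG libraries, whose sequence is not given in the labels. The WT libraries stood apart from both other genotypes: the nuclear RNA Malat1 lay at 1.67 to 11.1 RPKM in WT, 177 to 213 in DKO and 246 to 279 in DKO_TG. The part of this difference in the results against WT was not tested. Granulosa cell markers were present in every library, with a summed level of 7 genes between 1027 and 2269 RPKM, most of it Inha (874 to 1980 RPKM). Of these 7, 1 was lower in DKO than in WT (Foxl2, adjusted p = 0.00538) and 2 in DKO_TG (Foxl2, adjusted p = 0.00288, and Amh, adjusted p = 0.0464). Marker sums of luteal cells (87.9 to 926 RPKM) overlapped between genotypes, with 1 of 4 markers, Prlr, called as lower in DKO against WT. Erythrocyte sums were 198 to 285 RPKM in DKO_TG, below every WT (361 to 1657) and DKO (562 to 2409) sum. Of these 5 markers, 3 fell in DKO_TG against WT. Oviduct sums were 6.95 to 8.86 RPKM in WT, below all DKO (10.2 to 19.4) and DKO_TG (9.42 to 12.1) sums. Of these 3 markers, 2 rose and 1 fell in DKO against WT, and 1 rose in DKO_TG. Ovgp1, which rose in both, lay at 0.0184 to 0.232 RPKM in WT and passed the filter only through the knockout libraries. The part of these markers in the results was not tested.

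Short promoter stretches are shown for the 5 members whose windows hold a searched element of these pathways, to show which element each gene carries. Promoter windows from RefSeq (mouse build GRCm38.p6, the mm10 assembly), reaching from 250 bases before to 50 bases after the gene start, were found for all 10 genes, 1 window each, and searched on both strands. The ER stress element, the letters CCAAT and CCACG with 9 bases between them, was found in 39 of 32851 windows (0.119%), and those of Hspa5 and Hsp90b1 were among them. The C/EBP-ATF response element, at which ATF4 acts, was searched as TGATGCAA (0.895% of windows) and as TGATGAAA (1.02%), and the searched forms did not overlap each other in these genes. Each stretch below is read 5′ to 3′ on the strand of its gene, with the element in capitals. The stretches of Hspa5 and Asns lie inside the first exon of a longer transcript in GENCODE M21.
Hspa5, chr2:34772020-34772048, plus strand: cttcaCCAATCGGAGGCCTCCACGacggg
Hsp90b1, first element, chr10:86705633-86705661, minus strand: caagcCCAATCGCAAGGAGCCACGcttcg
Hsp90b1, second element, in the opposite orientation, chr10:86705528-86705556, minus strand: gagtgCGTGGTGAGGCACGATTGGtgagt
Asns, chr6:7693215-7693242, minus strand: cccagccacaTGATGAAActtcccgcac
Chac1, in the opposite orientation, chr2:119351039-119351066, plus strand: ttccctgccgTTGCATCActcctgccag
Herpud1, in the opposite orientation, chr8:94386307-94386334, plus strand: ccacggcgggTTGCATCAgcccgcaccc

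The element of Hspa5 lies 65 to 47 bases before the gene start and those of Hsp90b1 at 212 to 194 and 107 to 89 bases. The element of Asns lies 23 to 16 bases before the start, that of Chac1 at 193 to 186 and that of Herpud1 at 112 to 105. The windows of Atf4, Ddit3, Trib3, Xbp1 and Dnajb9 held none of the searched letters, nor did any member hold the XBP1 element core TGACGTGG (0.676% of windows) or the cyclic AMP element TGACGTCA (1.79%). These matches describe letters in a window and not binding.

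The members covered a wide span of expression. The chaperones stood highest, with Hspa5 at a mean of 243 RPKM and Hsp90b1 at 214 RPKM over the 9 libraries. Atf4 followed at 75.3 RPKM, Xbp1 at 48.7, Asns at 27.3, Dnajb9 at 25.5, Herpud1 at 21.2 and Ddit3 at 10.7. Chac1 at 4.60 RPKM and Trib3 at 3.84 RPKM stood lowest, and each gene overlapped with the next in this order in its range over libraries, except Hsp90b1 with Atf4 and Herpud1 with Ddit3.

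**Figure D1:**
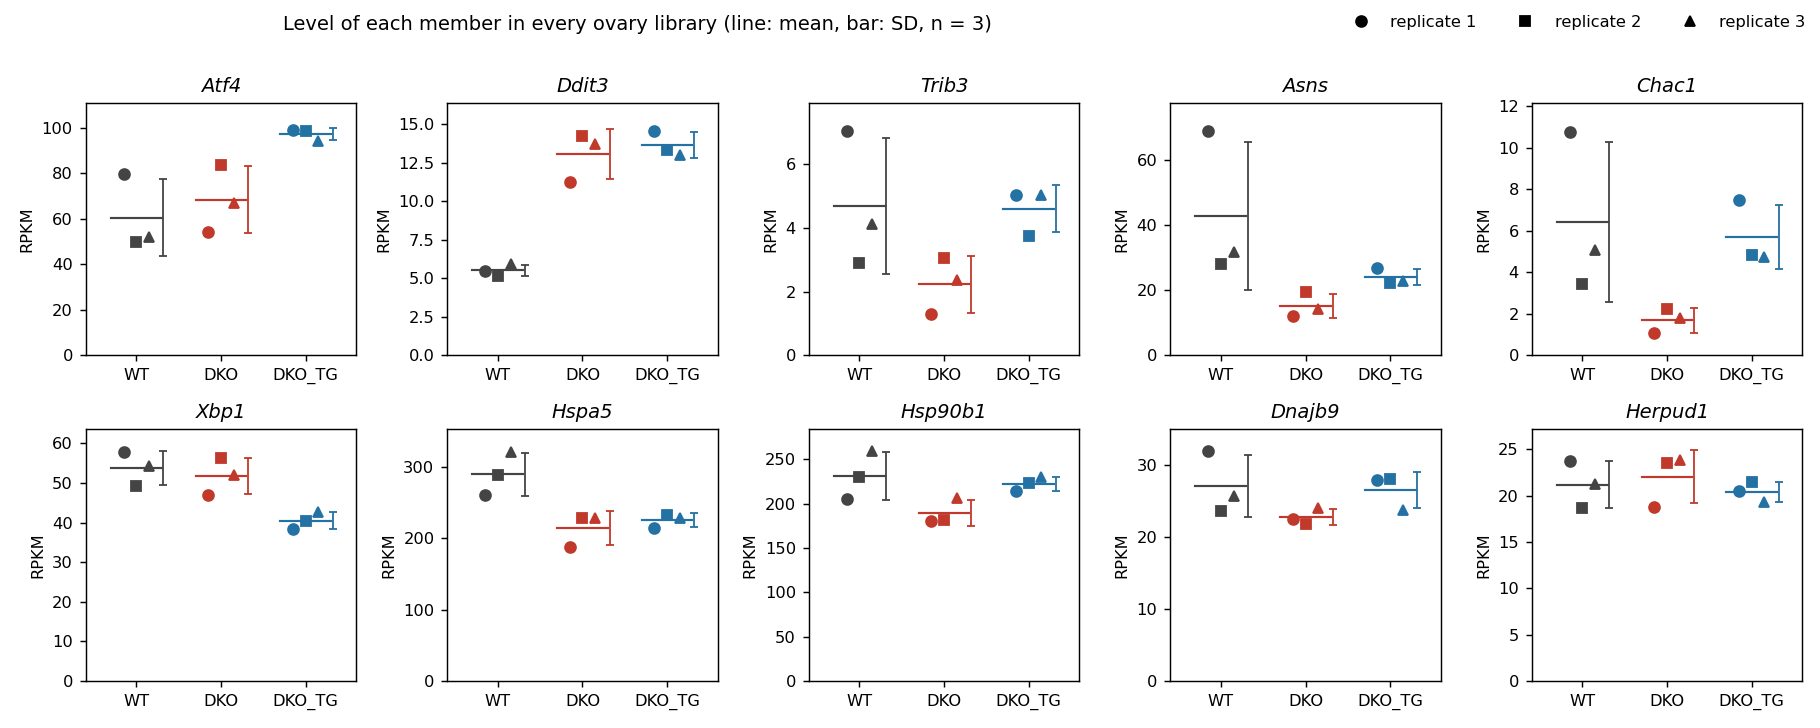
Level of each of the 10 genes in RPKM (y axis, from 0) in every library of the 3 genotypes (x axis); symbols give the replicate number, lines the mean and bars the SD (n = 3). Ddit3 is low in all WT libraries, while Trib3, Asns and Chac1 are lowest in DKO and highest in WT replicate 1.

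The transcription factor genes Atf4 and Ddit3 did not move alike at the deposited scaling. Ddit3, which encodes CHOP, a factor that promotes cell death under lasting stress, was more than doubled in both knockout genotypes (2.37-fold in DKO and 2.47-fold in DKO_TG). Atf4 rose against WT in DKO_TG, by 1.61-fold, while in DKO it did not pass the test, and the test of DKO_TG against DKO did not pass. Atf4 was called higher in DKO with the plain total of reads (log2 change 0.50), the same RPKM sum (0.73) and quantile scaling (0.69).

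Atf4 (chromosome 15, 80255184 to 80257541, plus strand, mm10) stood at 79.8, 49.6 and 52.1 RPKM in WT replicates 1, 2 and 3. It stood at 54.2, 83.5 and 67.0 RPKM in DKO and at 98.9, 98.6 and 94.0 RPKM in DKO_TG. All DKO_TG libraries lay above every WT and DKO library, while the WT and DKO libraries overlapped. The means were 60.5 ± 16.8, 68.2 ± 14.7 and 97.2 ± 2.71 RPKM (SD, n = 3 each). On the log2(RPKM + 0.5) scale, the change in DKO against WT was 0.18 ± 0.20 (SE; 95% interval -0.28 to 0.65; limma, adjusted p = 0.457). For DKO_TG against WT it was 0.71 ± 0.20 (interval 0.25 to 1.18; limma, adjusted p = 0.0177). This call was lost without WT replicate 2 (change 0.59, adjusted p = 0.0618), WT replicate 3 (0.62, 0.0602) or DKO_TG replicate 1 (0.70, 0.0520). ATF4 protein depends on translation, which RNA levels do not show.

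Ddit3 (chromosome 10, 127290774 to 127296288, plus strand) stood at 5.44, 5.17 and 5.91 RPKM in WT. It reached 11.2, 14.3 and 13.7 RPKM in DKO and 14.6, 13.3 and 13.0 RPKM in DKO_TG. Each knockout library lay above all WT libraries, and both knockout genotypes overlapped with each other. The log2 change was 1.17 ± 0.11 in DKO against WT (limma, adjusted p = 4.54e-05) and 1.23 ± 0.11 in DKO_TG against WT (limma, adjusted p = 3.65e-05). Both comparisons share the WT libraries. Under 20 other settings of the analysis, these changes ranged from 1.11 to 1.68 and from 1.16 to 1.72, and both calls held in each setting. Of the exon bases of Ddit3, 3.97% lie opposite exons of Mars, and the use of strand in counting is not given in the sources used here. Mars itself fell from 60.7, 36.4 and 37.6 RPKM in WT to 16.5, 19.9 and 20.0 RPKM in DKO. Oocyte markers were measured beside Ddit3. Their summed level over 5 genes, none at 0 in all libraries, was 11.0 to 25.7 RPKM in WT, 25.2 to 61.1 in DKO and 39.1 to 55.4 in DKO_TG. By the test 4 of 5 were higher in DKO and 5 of 5 in DKO_TG than in WT, with Zp2, of the egg coat, 2.70-fold and 2.84-fold higher by group means. DKO replicate 2 had the highest Ddit3 level and the lowest oocyte sum of the DKO libraries. In DKO_TG, replicate 1 was highest for both. In WT, replicate 2 had the lowest Ddit3 level and the highest oocyte sum. The part of the oocyte markers in the Ddit3 result was not tested.

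Asns, Chac1 and Trib3, all known targets of ATF4, fell in DKO, in the direction opposite to Ddit3. Asns, which encodes asparagine synthetase, was 2.82-fold lower in DKO than in WT by group means. Chac1, which encodes a glutathione-degrading enzyme, was 3.81-fold lower. Trib3, which encodes a pseudokinase that restrains the ATF4 and CHOP response, was 2.11-fold lower. In DKO_TG none of the 3 genes passed the test against WT or against DKO.

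Asns (chromosome 6, 7675169 to 7693254, minus strand) stood at 68.9, 27.9 and 31.6 RPKM in WT, with replicate 1 far above the others. In DKO it stood at 12.0, 19.3 and 14.3 RPKM, below every WT library. DKO_TG lay between, at 26.8, 22.1 and 22.9 RPKM, and overlapped with neither. The log2 change of DKO against WT was -1.37 ± 0.31 (interval -2.08 to -0.66; limma, adjusted p = 0.00587). The change of DKO_TG against WT was -0.71 (interval -1.42 to 0.00; adjusted p = 0.0874). Without WT replicate 1 the DKO change was -0.97 (adjusted p = 0.00468), and the call held under all 20 other settings (-1.62 to -0.83).

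Chac1 (chromosome 2, 119351229 to 119354381, plus strand) showed the same order. It stood at 10.8, 3.41 and 5.08 RPKM in WT and at 1.05, 2.24 and 1.77 RPKM in DKO. In DKO_TG it stood at 7.48, 4.84 and 4.73 RPKM, within the range of WT and above all DKO libraries. The DKO against WT change was -1.56 ± 0.37 on the log2 scale (interval -2.41 to -0.71; limma, adjusted p = 0.00737). Without WT replicate 1 it was -1.14 (adjusted p = 0.0147), and this call too held under all 20 other settings (-1.90 to -1.08). Chac1 differed between DKO_TG and WT by -0.05 (interval -0.90 to 0.80; adjusted p = 0.924).

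Trib3 (chromosome 2, 152337422 to 152344032, minus strand) stood at 7.06, 2.89 and 4.13 RPKM in WT. It stood at 1.28, 3.04 and 2.37 RPKM in DKO and at 5.04, 3.74 and 5.04 RPKM in DKO_TG. DKO replicate 2 lay above WT replicate 2, so those groups overlapped, and the DKO_TG libraries lay above all DKO libraries. The change in DKO against WT was -0.91 ± 0.32 (interval -1.63 to -0.18; limma, adjusted p = 0.0381). It lost the call under 11 of 20 other settings, among them without WT replicate 1 (-0.60, adjusted p = 0.125) and without DKO replicate 1 (-0.63, adjusted p = 0.120), and with all libraries at the same RPKM sum (-0.43, adjusted p = 0.165).

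A theca cell gene was also high in WT replicate 1, where these 3 genes were highest. Cyp17a1, the steroidogenic enzyme of theca cells, stood at 956, 164 and 190.2 RPKM in WT, 95.1, 59.0 and 200.2 RPKM in DKO and 955, 690 and 612 RPKM in DKO_TG. The summed level of the 4 theca markers, nearly all of it Cyp17a1, ranged from 169 to 960 RPKM in WT, from 67.6 to 213 in DKO and from 621 to 964 in DKO_TG. Cyp17a1 changed by -1.57 in DKO against WT (interval -3.09 to -0.05, limma, adjusted p = 0.0715), a 3.70-fold lower mean. In DKO_TG against DKO it changed by 2.82 (interval 1.31 to 4.34, adjusted p = 0.0724). No theca marker was thus called lower in DKO than in WT, and the other markers of the list rose: Insl3, Gli1 and Ptch1 (3 of 4). Insl3 was listed at 0 in WT replicates 2 and 3 and passed the filter only through the DKO libraries. Insl3 values are uncertain, since 64.8% of its exon bases lie within exons of Jak3 on the same strand, and 5.31% of those of Gli1 lie opposite another gene. In DKO, replicate 2 was the highest for Asns, Chac1 and Trib3 and the lowest for Cyp17a1. In DKO_TG, every library lay above all DKO libraries for Cyp17a1, Asns, Chac1 and Trib3. Every DKO_TG library lay above WT replicates 2 and 3 for Cyp17a1. For Chac1 and Trib3 they lay within the WT range, and for Asns below all WT libraries. The part of the theca markers in the Asns, Chac1 and Trib3 results was not tested.

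Ratios within a library do not depend on how libraries are scaled against each other. Per unit of Atf4, Asns fell from 0.864, 0.563 and 0.607 in WT to 0.222, 0.231 and 0.213 in DKO, with 0.271, 0.224 and 0.244 in DKO_TG. Its ratio to Atf4 was thus below all WT libraries in every knockout library, with means of 0.678 ± 0.162, 0.222 ± 0.00876 and 0.246 ± 0.0235 (SD, n = 3 each). The Chac1 to Atf4 ratio was 0.135, 0.0689 and 0.0976 in the WT libraries, at 0.0194, 0.0268 and 0.0265 in DKO and at 0.0756, 0.0491 and 0.0503 in DKO_TG. For Chac1, the DKO_TG ratios lay above all DKO ratios and overlapped with WT. The mean Trib3 to Atf4 ratio was 0.0754 ± 0.0154 in WT, 0.0318 ± 0.00713 in DKO and 0.0476 ± 0.00840 in DKO_TG. Here no DKO ratio reached a WT or DKO_TG ratio.

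The Ddit3 to Atf4 ratio moved the other way. It was 0.0682, 0.104 and 0.113 in the WT libraries, against 0.207, 0.171 and 0.205 in DKO and 0.148, 0.135 and 0.138 in DKO_TG. None of the groups overlapped, and DKO_TG lay between WT and DKO. With 3 libraries against 3, an exact two-sided permutation test cannot go below 0.1, so these ratios are given as a description.

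**Figure D2:**
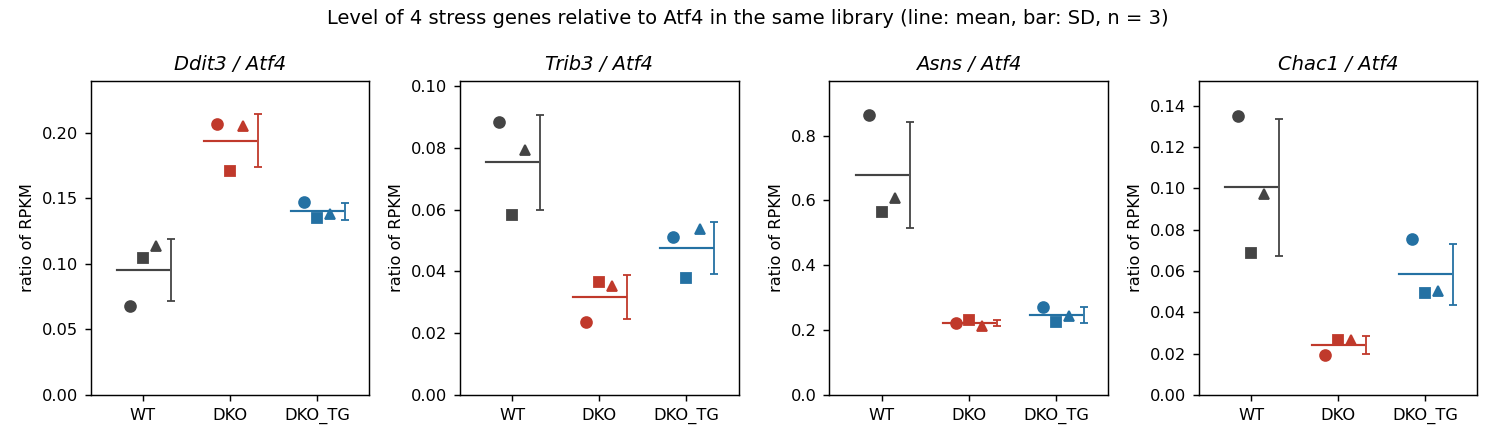
Ratio of RPKM to that of Atf4 in the same library (y axis, from 0) for Ddit3, Trib3, Asns and Chac1 in the 3 genotypes; points are libraries, lines means and bars SD (n = 3). The Asns ratio is at 0.563 or above in WT and at 0.271 or below in both other genotypes, while the Ddit3 ratio is highest in DKO.

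The changes of the chaperones and the XBP1 branch against WT were 0.43 or less in size on the log2 scale. Hspa5, which encodes the ER chaperone BiP, was lower in both knockout genotypes, and Xbp1, which encodes the factor spliced by IRE1, was lower in DKO_TG. Hsp90b1, Dnajb9 and Herpud1 passed the test in no comparison at the deposited scaling. The directions in this group depended on how libraries were scaled against each other.

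Hspa5 (chromosome 2, 34771970 to 34777547, plus strand) stood at 260.1, 289 and 321 RPKM in WT. It stood at 187, 229 and 228 RPKM in DKO and at 214, 233 and 228 RPKM in DKO_TG, and all these libraries lay below WT. The log2 change was -0.43 ± 0.13 in DKO against WT (interval -0.73 to -0.14; limma, adjusted p = 0.0196), a 1.35-fold lower mean. The DKO_TG change against WT was -0.36 ± 0.13 (interval -0.65 to -0.07; limma, adjusted p = 0.0442). The first call was lost in the fit of only the 6 libraries compared (adjusted p = 0.0661), without WT replicate 3 (adjusted p = 0.0703) and under 3 other scalings. It was kept with median-of-ratios scaling. The second was lost under 11 of 20 other settings, among them leaving out WT replicate 2 or 3 (0.0922 and 0.142), DKO replicate 3 (0.0545) or any DKO_TG library (0.0863 to 0.138).

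Xbp1 (chromosome 11, 5520659 to 5525893, plus strand) stood at 57.7, 49.2 and 54.2 RPKM in WT and at 47.1, 56.3 and 51.9 RPKM in DKO, which overlapped. In DKO_TG it stood at 38.3, 40.5 and 42.7 RPKM, below every library of both other genotypes. The log2 change was -0.40 ± 0.10 in DKO_TG against WT (interval -0.63 to -0.17; limma, adjusted p = 0.0103) and -0.05 in DKO against WT (interval -0.29 to 0.18; adjusted p = 0.670), where 3 other scalings gave a call as higher. Against DKO the DKO_TG change was -0.35 (interval -0.58 to -0.12; adjusted p = 0.138), and it passed the test with quantile scaling (-0.43, adjusted p = 0.0230) and the plain total (-0.40, adjusted p = 0.0365). A gene-level table does not separate spliced from unspliced Xbp1.

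Hsp90b1 (chromosome 10, 86690209 to 86705509, minus strand), which encodes the chaperone GRP94, stood at 205, 230.3 and 259 RPKM in WT. It stood at 180.0, 181 and 206 RPKM in DKO and at 214, 223 and 230.0 RPKM in DKO_TG. WT overlapped with both other genotypes, and all DKO_TG libraries lay above DKO. The change in DKO against WT was -0.29 (interval -0.56 to -0.01; limma, adjusted p = 0.0698), and it passed the test without WT replicate 1 (-0.37, adjusted p = 0.0295). Of its exon bases, 10.3% lie opposite a pseudogene, 1810014B01Rik.

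Set against Hspa5 in the same library, Hsp90b1 stood at 0.789, 0.798 and 0.808 in the WT libraries, at 0.962, 0.792 and 0.903 in DKO and at 0.998, 0.957 and 1.01 in DKO_TG. The WT ratios lay within a narrow range, and the DKO_TG ratios lay above all of them. DKO replicate 2 fell within the WT range.

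Dnajb9 (chromosome 12, 44205559 to 44210326, minus strand), which encodes the co-chaperone ERdj4, stood at 31.9, 23.6 and 25.7 RPKM in the WT libraries, at 22.4, 21.8 and 24.1 in DKO and at 27.9, 28.1 and 23.7 in DKO_TG. Herpud1 (chromosome 8, 94386438 to 94395377, plus strand), a component of ER-associated degradation, stood at 23.7, 18.6 and 21.2 RPKM in the WT libraries, at 18.8, 23.5 and 23.9 in DKO and at 20.5, 21.5 and 19.3 in DKO_TG. The 3 genotypes overlapped for both genes. The intervals of DKO against WT were -0.52 to 0.05 for Dnajb9 (limma, adjusted p = 0.134) and -0.22 to 0.33 for Herpud1 (adjusted p = 0.723).

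Of the 10 genes, 1 rose and 4 fell in DKO against WT. Over all 18889 genes tested, 30.8% rose and 25.9% fell in that comparison. In DKO_TG against WT, 2 rose and 2 fell, where 29.1% of all genes rose and 22.3% fell. These shares are so large that the counts of members alone are no result about the members. The median log2 change of the members was -0.26 in DKO against WT (0.02 over all genes) and -0.05 in DKO_TG against WT (0.03 over all genes).

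In DKO_TG against DKO none of the 10 genes was called by limma, by which 0.498% of all genes rose and 1.73% fell, nor by limma-voom on recovered reads. At an unadjusted p under 0.05 there were 4: Atf4, Trib3, Chac1 and Xbp1. The share of all genes under that cut is not given here, so this count alone is no result about the members. The differences were 1.51 for Chac1 (interval 0.66 to 2.36; adjusted p = 0.0836), 0.95 for Trib3 (0.22 to 1.68; adjusted p = 0.195), 0.66 for Asns (-0.05 to 1.37; adjusted p = 0.353) and 0.53 for Atf4 (0.06 to 0.99; adjusted p = 0.253). These intervals leave room for differences of over 1 log2 unit in Chac1, Trib3 and Asns. For Ddit3 the difference was 0.06 (interval -0.18 to 0.31). Without WT replicate 1, which enters through the shared spread, Chac1 passed the test (1.51, adjusted p = 0.0368), as it did with quantile scaling (1.60, adjusted p = 0.0492) and the same RPKM sum (1.52, adjusted p = 0.0339).

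**Figure D3:**
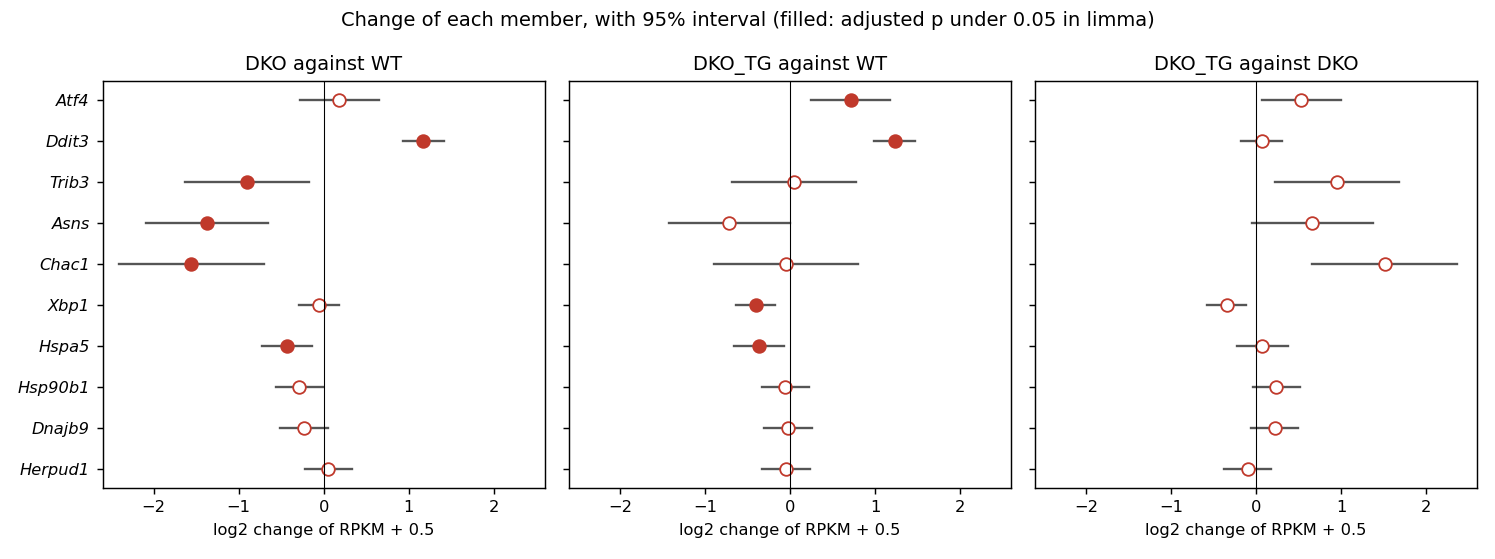
Change of each of the 10 genes on the log2(RPKM + 0.5) scale (x axis) in the 3 comparisons, as points with 95% intervals; filled points passed the limma test. Asns, Chac1, Trib3 and Hspa5 lie to the left and Ddit3 to the right in DKO against WT, and no point is filled in DKO_TG against DKO.

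The scaling between libraries moved these values. The library size implied by the deposited RPKM was 0.793 to 0.920 of the recovered reads in WT and 1.03 to 1.11 in the others. With libraries set to the plain total of reads, the median change of all genes was 0.28 in DKO against WT, and 8239 genes rose and 2316 fell in place of 5821 and 4889. With libraries set to the same RPKM sum, the median was 0.48, and 10027 rose and 1065 fell. For DKO_TG against WT the medians were 0.25 and 0.47, with 7484 rising and 2239 falling at the plain total and 9739 and 994 at the same sum, in place of 5491 and 4214. With quantile scaling, 4154 genes rose and 4726 fell in DKO against WT, and 3777 and 4504 in DKO_TG against WT.

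Ddit3 stayed higher and Asns and Chac1 stayed lower in DKO under each of these scalings. Hspa5 did not: its change in DKO against WT was -0.12 with the plain total, 0.12 with the same RPKM sum and 0.24 with quantile scaling, none of them called. Atf4 rose past the test in DKO under all 3 (0.50, 0.73 and 0.69), as did Herpud1 (0.36, 0.59 and 0.29) and Xbp1 (0.26, 0.49 and 0.41; adjusted p = 0.0218, 0.00115 and 0.00244). Xbp1 in DKO_TG against WT went from -0.40 to -0.14, 0.12 and -0.02 and lost its call in each. In DKO against WT the direction of Xbp1, Hspa5, Hsp90b1 and Dnajb9 thus changed with the scaling, and that of Ddit3, Asns and Chac1 did not in the 20 settings run. In DKO_TG against WT, Chac1 went from -0.05 to 0.44 with the same RPKM sum and 0.20 with the plain total, neither called. With median-of-ratios scaling the same members were called as at the deposited scaling in each comparison. Over all genes it gave 5741 rising and 5059 falling in DKO against WT, and 5325 and 4473 in DKO_TG against WT.

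**Figure D4:**
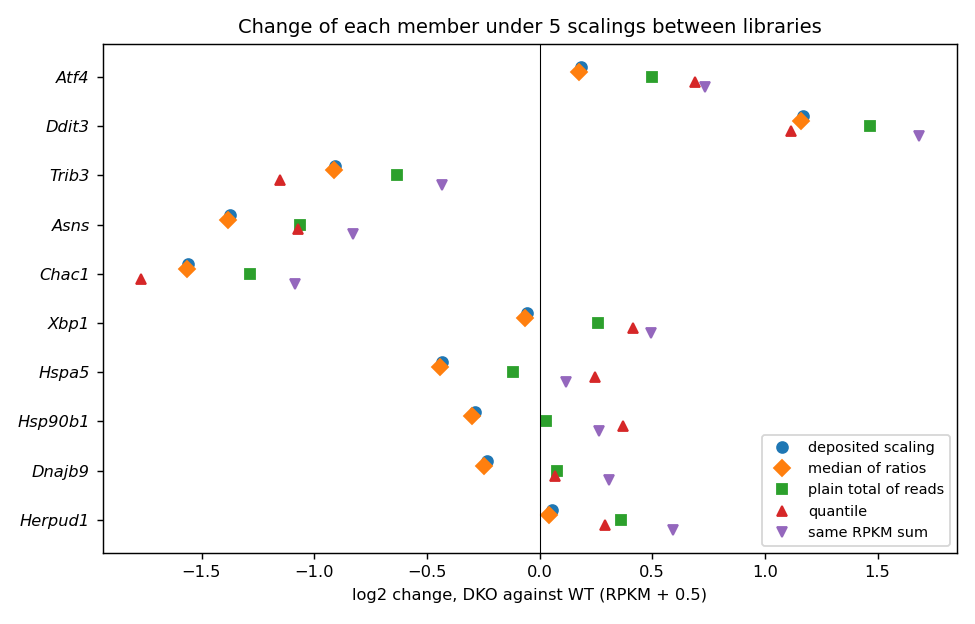
Log2 change of each of the 10 genes in DKO against WT (x axis) under 5 ways of scaling libraries against each other (symbols). Ddit3 lies right of 0 and Trib3, Asns and Chac1 left of 0 under each, while Xbp1, Hspa5, Hsp90b1 and Dnajb9 lie on both sides.

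Other genes of the pathways were taken from 6 lists and are described by their counts. Over all genes 30.8% rose and 25.9% fell in DKO against WT, and 29.1% and 22.3% in DKO_TG against WT. The all-gene counts under the other scalings are given above. Among 15 sensors of the unfolded protein response and genes of eIF2alpha control, 5 rose and 3 fell in DKO against WT (median change -0.02). These counts are near the shares over all genes and alone are no result about the list. Eif2ak4, the amino acid-sensing kinase GCN2, rose by 0.71 (adjusted p = 0.000355). Crebrf, a regulator that restrains the unfolded protein response, rose by 0.83 (adjusted p = 0.000517). Creb3l1, an ER membrane-bound transcription factor, fell by 1.11 (adjusted p = 0.000268). Against WT, 6 rose and 3 fell in DKO_TG, with 11 and 1 at the same RPKM sum and 3 rising with quantile scaling. The count of rising genes in DKO fell to 3 without WT replicate 1 or DKO replicate 1 or 3, and was 11 with 1 falling at the same RPKM sum and 7 with 3 falling at the plain total.

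The list of effectors of ATF4 and CHOP had 13 tested genes, while Fgf21 and Pmaip1 did not pass the filter. In DKO against WT, 6 rose and 2 fell (median 0.17). Atf3, a stress-induced factor of the same family, stood at 0.740, 0.612 and 0.605 RPKM in WT and 1.01, 2.83 and 1.65 in DKO (change 0.94, adjusted p = 0.0117). Bcl2l11, which encodes the cell death protein BIM, rose by 0.42 (adjusted p = 0.0132), and both calls were lost with quantile scaling, which gave 3 rising and 3 falling. Sesn2, a stress-induced restraint on mTORC1, fell by 0.43 (adjusted p = 0.00970), but its change was 0.084 with the same RPKM sum and the call was lost at the plain total. Under both the plain total and the same RPKM sum, 8 rose and none fell, and with limma-voom 4 fell. Over all 18889 genes, 8239 rose and 2316 fell at the plain total, and 10027 and 1065 at the same RPKM sum. The counts of this list alone, against either genotype, are thus no result about it. The falling count was 1 without WT replicate 1 or DKO replicate 1 or 3, and 4 without DKO replicate 2. Against WT, 2 rose and 1 fell in DKO_TG (9 and none at the same RPKM sum, 8 and none at the plain total), and the falling gene, Tnfrsf10b, was lost without WT replicate 1 or 3 or any DKO_TG library.

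Of 19 genes of amino acid synthesis and transport, 12 fell, 1 rose (Slc7a3) and 6 were not called in DKO against WT, with a median change of -0.97. Slc7a3 stood at 0.277, 0.160 and 0.137 RPKM in WT, under the filter value of 0.5. It passed the filter only through the knockout libraries (0.578 to 1.02 RPKM), so its rise carries no weight here. Slc1a4, a carrier of serine and alanine, stood at 9.09, 6.47 and 7.87 RPKM in WT and 2.07, 3.48 and 2.45 in DKO (change -1.41, adjusted p = 0.000409). Slc7a11, the cystine carrier, changed by -1.15 (adjusted p = 0.000802) and Aldh18a1, of proline synthesis, by -0.99 (adjusted p = 0.000910). The falling counts under the other scalings were 12 (quantile), 11 (plain total, with 4 rising) and 8 (same RPKM sum, with 4 rising). Without WT replicate 1, 2 genes rose.

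Of these 19 genes, 5 fell and 3 rose in DKO_TG against WT, with Slc7a3 among the 3. That falling count was 1 at the plain total and 0 at the same RPKM sum, with 4 and 5 rising, and 3 without WT replicate 3 or any DKO_TG library. In DKO_TG against DKO no gene of the list was called, and 18 of 19 changes were above 0 (median 0.41, against 0.03 over all genes). Mthfd2, a mitochondrial folate enzyme, stood at 43.1, 26.8 and 28.2 RPKM in the WT libraries, at 8.41, 16.1 and 11.8 in DKO and at 27.4, 20.7 and 24.7 in DKO_TG (DKO_TG against DKO 1.01, adjusted p = 0.0817). Slc1a4 differed by 0.83 (adjusted p = 0.0645) and Slc38a2, a carrier of neutral amino acids, by 0.35 (adjusted p = 0.119). Without WT replicate 1 or DKO replicate 2, 1 gene of the list was called.

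Nearly all aminoacyl-tRNA synthetases, which load amino acids onto tRNA, fell. In DKO against WT 17 of 18 fell and none rose (median -0.85), among them Lars by 0.87 (adjusted p = 0.000221), Wars by 0.86 (adjusted p = 0.000325) and Kars by 0.92 (adjusted p = 0.000482). Against WT, 12 fell in DKO_TG. With the same RPKM sum the falling counts were 10 and 3, the latter with 2 rising. In DKO_TG against DKO 1 was called, Lars, which encodes the leucine enzyme. It stood at 36.2, 30.0 and 31.7 RPKM in the WT libraries, at 15.7, 19.1 and 18.0 in DKO and at 29.6, 28.1 and 26.9 in DKO_TG (change 0.67 ± 0.11, adjusted p = 0.0209). The call was lost in the fit of only the 6 libraries compared (adjusted p = 0.0550), without DKO replicate 3 (0.0590) or DKO_TG replicate 1, 2 or 3 (0.0868, 0.0917 and 0.0907), and 2 were called without WT replicate 1. Dars (0.26, adjusted p = 0.158) and Eprs (0.33, adjusted p = 0.255) did not pass.

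Most other ER chaperones and folding enzymes fell as well. In DKO against WT 13 of 15 fell and none rose (median -0.66), and in DKO_TG against WT 10 fell (median -0.48). Calr, the calcium-binding chaperone calreticulin, stood at 606, 535 and 570.0 RPKM in the WT libraries, at 240.2, 315 and 269.8 in DKO and at 325, 361 and 346 in DKO_TG (DKO against WT -1.06, adjusted p = 0.000299). Sil1, a nucleotide exchange factor of BiP, fell by 0.86 (adjusted p = 0.000262) and Fkbp2, a folding enzyme, by 0.92 (adjusted p = 0.000416). The falling counts shrank to 8 at the plain total, 5 with quantile scaling and 3 at the same RPKM sum in DKO, and to 5, 2 and 2 in DKO_TG, with 1 rising in DKO under quantile scaling and at the same sum, and 2 rising in DKO_TG at the same sum. In DKO_TG against DKO none was called, with Dnajb11 at 0.28 (adjusted p = 0.195), Calr at 0.33 (adjusted p = 0.278) and Canx at 0.22 (adjusted p = 0.390).

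Plasma cells hold a large ER, and their markers were measured as well. The summed level of 6 plasma cell markers was 131 to 202 RPKM in WT, 367 to 664 in DKO and 132 to 243 in DKO_TG. Against WT, 4 of 5 tested markers rose in DKO and 1 in DKO_TG. The marker called in DKO_TG was Mzb1, at 0.362 to 0.595 RPKM in WT and 0.747 to 1.44 in DKO_TG. Its values are uncertain, since 57.2% of its exon bases lie within exons of SPATA24 on the same strand. The changes of Sdc1 (0.81), Jchain (0.26), Igkc (-0.02) and Ighm (-0.50) in DKO_TG against WT were not called. Macrophage markers summed to 120.4 to 156, 176 to 354 and 85.4 to 89.6 RPKM, with 6 of 7 higher in DKO than in WT and 6 lower in DKO_TG than in DKO. No marker of either list was at 0 in all libraries. Their part in the results was not tested.

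Genes of ER-associated degradation and of translocation into the ER gave 8 falling and 1 rising of 18 in DKO against WT (median -0.35). Sec61a1, the channel subunit, fell by 0.74 (adjusted p = 0.000184), Os9, a lectin of degradation, by 0.91 (adjusted p = 0.000250) and Ssr1, of the translocon, by 0.69 (adjusted p = 0.000579). The calls of Sec61a1 and Ssr1 were lost at the same RPKM sum, where 7 rose and 1 fell, and the counts were 6 and 4 at the plain total and 2 and 3 with quantile scaling. Without DKO replicate 2, 2 rose. Against WT, 5 fell and 2 rose in DKO_TG (1 and 8 at the same RPKM sum, 2 and 6 at the plain total, 2 and 4 with quantile scaling), and 3 fell without DKO_TG replicate 1. None was called in DKO_TG against DKO, where Sel1l (0.36, adjusted p = 0.135), Edem1 (0.31, adjusted p = 0.176) and Ssr1 (0.31, adjusted p = 0.177) came closest.

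Among the sensors and effectors, the smallest adjusted p-values of DKO_TG against DKO belonged to Crebrf (-0.43, adjusted p = 0.116), Mbtps2 (0.20, adjusted p = 0.261) and Eif2ak2 (0.22, adjusted p = 0.261), and to Sesn2 (0.47, adjusted p = 0.0708), Cebpg (0.31, adjusted p = 0.145) and Nupr1 (-0.59, adjusted p = 0.213). No gene of either list was called in that comparison. Mbtps2, Eif2ak2, Cebpg, Sil1 and Sec61a1 share exon bases with other annotated genes, so their values are uncertain.

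**Figure D5:**
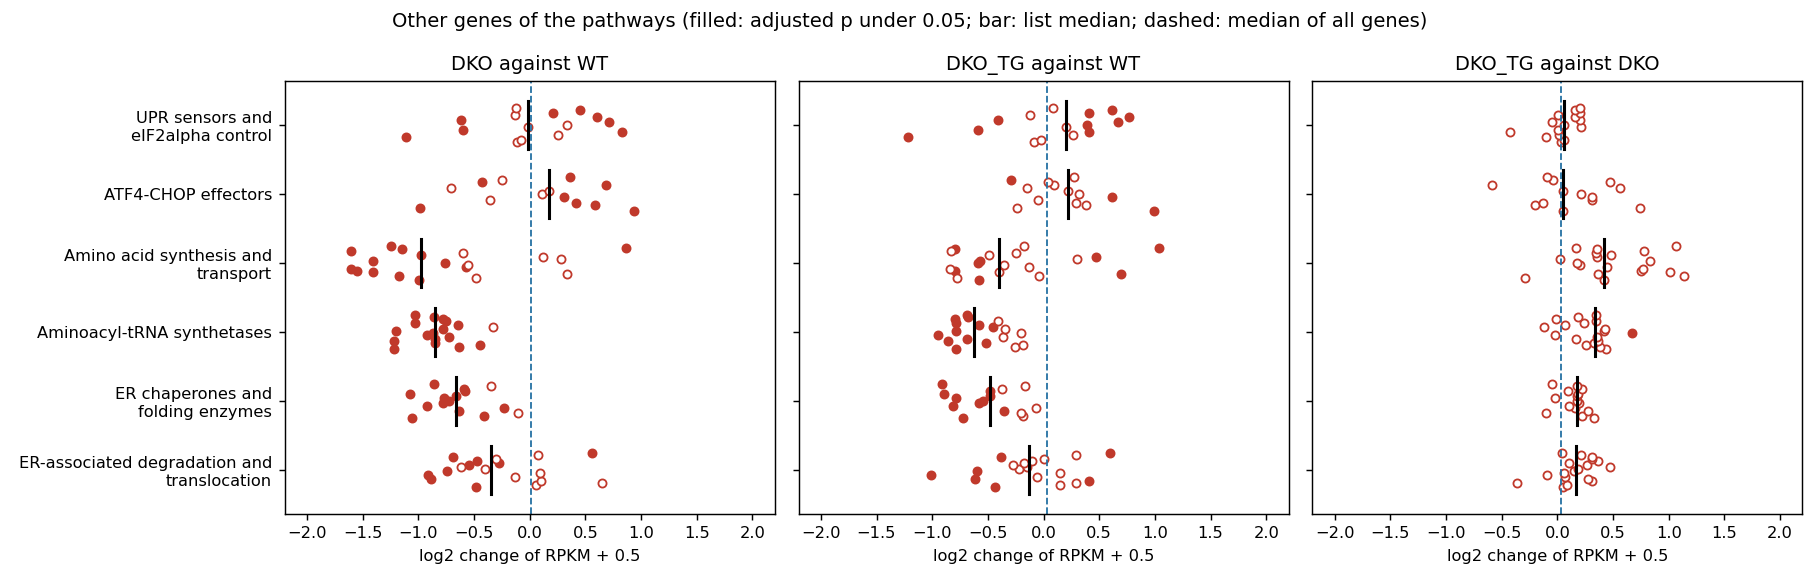
Log2 change (x axis) of each tested gene of the 6 pathway lists in the 3 comparisons; filled points passed the limma test, black bars are list medians and the dashed line is the median of all genes. The medians of amino acid genes, tRNA synthetases and chaperones lie at -0.97, -0.85 and -0.66 in DKO against WT and above 0 in DKO_TG against DKO.

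By the root mean square difference of centred log2(RPKM + 0.5) values over the 9 libraries, among 13035 genes compared, the genes with a profile most like that of Atf4 were Lynx1 (0.13), Mettl5 (0.15) and Hmgn3 (0.16). For Ddit3 they were Zfp932 (0.09), Mterf1a (0.10) and Hddc3 (0.11), and for Hspa5 they were Smap1 (0.07), Xxylt1 (0.08) and Cpsf2 (0.08). Zfp932 stood at 4.40, 4.32 and 4.74 RPKM in the WT libraries, at 10.2, 10.7 and 10.6 in DKO and at 10.9, 11.9 and 10.9 in DKO_TG, a step like that of Ddit3. None of these 9 genes belongs to the 6 pathway lists.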

How the data were processed

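RNA sequencing of 9 ovary libraries gave 1 table of RPKM values that the authors deposited. Per the submitters' processing notes reads on mm10 passed through DESeq2 1.2.8, HTSeq 0.5.4p5, HISAT2 2.1.0 and cutadapt, named there without order or role. Annotation, strand setting and how RPKM was made are not given in the sources used. Of 54838 genes, 54809 matched GENCODE M21. RPKM times exon length gave whole reads for 97.8% of values above 0, within 0.01 read or a relative 1e-06. The transgene columns spell the transgene differently from the labels and were matched by group and number.

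A gene was tested if 3 or more libraries reached an RPKM of 0.5 (18889 genes). The test was limma 3.58.1 (lmFit, eBayes with trend) in R 4.3.3 on log2(RPKM + 0.5). All 9 libraries entered 1 fit, with Benjamini-Hochberg adjustment over all genes and calls at an adjusted p under 0.05. Fold changes on this scale understate changes of low genes. The fit was also run on simulated data with far fewer changed genes than were called here against WT, so that run is not used as support. Limma-voom on recovered reads called 5618 genes higher and 4751 lower in DKO against WT, 5288 and 4037 in DKO_TG against WT, and 73 and 241 in DKO_TG against DKO.

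Alternatives were pseudocounts 0.1 and 1, no filter, a filter at RPKM 1, quantile, median-of-ratios and same-sum scaling, only the 6 libraries compared, the replicate block, limma-voom and leaving out each library; the plain total of reads was added after seeing the data. The members, lists and markers were chosen with earlier results of these data known. Of each list, up to 3 genes with the smallest adjusted p in DKO against WT and in DKO_TG against DKO are named; other genes named were chosen after their values were seen. Most-like genes exclude clone names.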

Additional observations from a re-analysis of the deposited data

How the results depend on the processing

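Depth was 40.1 to 59.4 M reads a library, and the 3 libraries a genotype limit the precision. The calls of Ddit3 against WT and of Asns and Chac1 in DKO against WT held under all 20 alternatives. In DKO against WT the number of members that rose went from 1 to 4 with quantile scaling, the same RPKM sum and the plain total, and the number that fell went from 4 to 2 with the same sum, the plain total and only the 6 libraries compared. For DKO_TG against WT the number that rose went from 2 to 5 with the same sum, and the number that fell went from 2 to 0 with quantile scaling, the same sum and the plain total, and to 1 with no filter. With the same sum, 10027 of all 18889 genes rose in DKO against WT and 9739 in DKO_TG against WT. The member counts under these settings alone are thus no result about the members. In DKO_TG against DKO 1 rose with quantile scaling and the same sum (Chac1), and 1 fell with quantile scaling and the plain total (Xbp1), in place of 0. Leaving out single libraries gave 2 to 4 falling in DKO against WT, 1 to 2 rising and 1 to 2 falling in DKO_TG against WT, and 0 to 1 rising in DKO_TG against DKO. Replicate numbers did not pair the libraries (correlations of deviations from -0.31 to 0.14). With the number as a replicate block, 1 member rose and 3 fell in DKO against WT, 2 rose and 1 fell in DKO_TG against WT and none changed in DKO_TG against DKO, where the calls over all genes went from 94 and 327 to 21 and 78. In that comparison 19 rose and 38 fell with only the 6 libraries, and 68 and 162 with no filter. Among the lists, the effectors that fell in DKO against WT went from 2 to 1 with no filter, with only the 6 libraries and with the block, the effectors that rose in DKO_TG against WT went from 2 to 4 with only the 6 libraries, and the amino acid genes that fell there went from 5 to 3 with no filter. Lars in DKO_TG against DKO was not called with the block (adjusted p = 0.0682), and limma-voom did not test it.

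Directions of log2 changes reversed as follows, and the cause was not tested beyond the scaling itself. With quantile scaling, the same RPKM sum and the plain total in turn, DKO against WT gave 0.41, 0.49 and 0.26 for Xbp1 (each called as higher), 0.37, 0.26 and 0.028 for Hsp90b1 and 0.070, 0.31 and 0.076 for Dnajb9. In the same order DKO_TG against WT gave 0.58, 0.48 and 0.21 for Hsp90b1, 0.25, 0.50 and 0.24 for Dnajb9 and 0.14, 0.47 and 0.21 for Herpud1. Of these, Hsp90b1 was called as higher with quantile scaling and all 3 genes with the same sum. Hspa5 gave 0.24 and 0.12 (DKO against WT) and 0.28 and 0.17 (DKO_TG against WT) with quantile scaling and the same sum. With the same sum, DKO_TG against WT gave 0.44 for Chac1 and 0.12 for Xbp1, and DKO against WT gave 0.084 for Sesn2. Chac1 was at 0.20 in DKO_TG against WT with the plain total, and Trib3 at -0.13 with quantile scaling. Leaving out 1 library in turn moved 9 uncalled changes across 0. In DKO_TG against WT they ranged from -0.22 to 0.36 for Trib3, -0.39 to 0.38 for Chac1, -0.14 to 0.032 for Hsp90b1, -0.11 to 0.10 for Dnajb9 and -0.13 to 0.035 for Herpud1. In DKO against WT they ranged from -0.12 to 0.012 for Xbp1 and -0.033 to 0.16 for Herpud1, and in DKO_TG against DKO from -0.038 to 0.13 for Ddit3 and -0.023 to 0.12 for Hspa5.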
